A study of Homo sapiens with 2 samples.

Results

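The 2'-5'-oligoadenylate synthetase (OAS) family was read in Ca9-22 cells, an oral squamous cell carcinoma line, through every non-control probe whose gene name on the array was OAS1, OAS2, OAS3 or OASL. These 4 genes had 7 probes, among 43317 gene names and 58201 probes in all. The control cells carried the empty lentiviral vector pLenti6/V5-DEST and the other cells carried the same vector with full-length cDNA of DLEU1, a long non-coding RNA. Both had been selected with blasticidin for 2 weeks at the 6 mg/ml given in the labels, and neither had an added interferon named in the labels. Whether the selected cells were a pool or a clone was not given in the sources used here. Each vector had 1 one-colour Agilent array, so there were no replicates, no difference had a test, and the vector and the culture cannot be told apart. DLEU1 itself, at its brightest probe, read 2178 on the control array and 14156 on the DLEU1 array, a difference of 2.74 on the log2 scale, and its other probes differed by 0.85 and 0.54.

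The OAS genes are interferon-stimulated genes (ISGs). OAS1, OAS2 and OAS3 encode enzymes that sense double-stranded RNA and join ATP into short 2'-5'-linked oligoadenylates, which switch on a latent ribonuclease that cuts viral and cellular RNA. OASL is the relative that lacks this enzyme activity and is known instead for ubiquitin-like repeats and for strengthening signalling from the RNA sensor RIG-I. Their transcription is known to be driven by STAT2, IRF9 and other interferon regulatory factors, through interferon-stimulated response elements in the promoters. OAS1, OAS3 and OAS2 lie side by side on chromosome 12 in GRCh38.p14, at 112906962 to 112933219, 112938474 to 112973251 and 112978519 to 113011723, and OASL lies farther along at 121017761 to 121039246. The study asked what DLEU1 does to ISGs. It reported that ISGs, OAS1 among them, were suppressed by DLEU1 knockdown and activated by ectopic DLEU1. Its evidence for ISGs under ectopic DLEU1 also held PCR assays and a reporter assay, which were not re-analysed here.

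OAS3 stood apart from the other members. Both of its probes were lower on the DLEU1 array, by 3.10-fold and 2.85-fold, whereas those of OAS1 and OASL were higher by 1.35-fold and 1.42-fold. The OAS2 probe detected on both arrays differed by less than its scanner error. With the arrays scaled to their spike-in RNAs, OAS1 and OASL differed by -0.03 and 0.05 on the log2 scale and OAS3 was still lower. One probe of OAS1 and one of OAS3 are alike in sequence, and both are printed here because their readings differed in direction. Binding of either probe to the other message was not tested. Capitals mark the bases that are identical when the probes are laid side by side without gaps, 33 of 55 overlapping bases or 60%.
OAS1 probe A_23_P64828, chr12:113354461-113354520, hg19, plus strand: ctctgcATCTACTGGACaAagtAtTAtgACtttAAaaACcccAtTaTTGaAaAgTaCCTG
OAS3 probe A_33_P3402489, chr12:113405902-113405961, hg19, plus strand: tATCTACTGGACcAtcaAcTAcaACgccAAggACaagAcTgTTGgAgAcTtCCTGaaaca
Every other pair among the 7 probes shared 18 to 22 bases in its best overlap. The array design places the OAS1 probe at base 907 of its transcript and the OAS3 probe at base 3124, and which exon each lies in was not analysed here. The GC content of the 7 probes ran from 35% at OAS1 to 53.3% at the other OAS3 probe, inside the 5th to 95th percentile of all probes, 35% to 55%.

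The upstream sequences of OAS1 and OAS3 are shown because these neighbours on the chromosome gave unlike readings, OAS1 differing by 0.44 (-0.03 with spike-in scaling) and OAS3 by -1.63 and -1.51 (-2.10 and -1.97). The RefSeq promoter table of GRCh38.p14 held an entry for 2 of the 4 members, these 2. Each line gives the 250 bases that end just before the annotated start of the gene. Capitals mark matches to 3 spellings of the element, GAAANNGAAA, GGAANNGAAA and GAAANGAAA, searched on both strands, the last of which was added after the OAS promoters had been seen.
OAS1 upstream, chr12:112906712-112906961, plus strand: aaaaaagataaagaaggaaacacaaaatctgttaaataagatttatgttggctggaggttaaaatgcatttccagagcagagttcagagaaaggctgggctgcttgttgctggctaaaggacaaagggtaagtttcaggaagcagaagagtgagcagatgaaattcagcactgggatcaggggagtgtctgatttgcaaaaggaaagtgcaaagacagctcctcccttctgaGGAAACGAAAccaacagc
OAS3 upstream, chr12:112938224-112938473, plus strand: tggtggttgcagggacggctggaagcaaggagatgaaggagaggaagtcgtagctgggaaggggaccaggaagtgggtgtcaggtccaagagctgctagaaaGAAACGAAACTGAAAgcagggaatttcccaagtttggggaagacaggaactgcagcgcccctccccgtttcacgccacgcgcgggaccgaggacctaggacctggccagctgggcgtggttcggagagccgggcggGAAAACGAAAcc
In OAS1 the match GGAAACGAAA spanned bases -18 to -9 from the start, and the shorter spelling overlapped it from -17 to -9. In OAS3 the match GAAAACGAAA spanned -12 to -3 and GAAACTGAAA spanned -143 to -134, with an overlapping shorter match from -148 to -140. GAAANNGAAA was found in 3.02% of 35116 promoters, GGAANNGAAA in 2.41%, GAAANGAAA in 2.69% and any of them in 6.85%. Any of them was found in 25 of the 32 promoters held for the other effector ISGs described further on. Both genes thus had a match close to the start. OAS3 had a further match upstream, which the match to the spelling added later overlapped. The matches are a description of the letters and not a measure of binding.

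The arrays give a processed signal for each probe, a background-subtracted brightness in arbitrary units whose size cannot be compared between probes. To put the arrays on the same scale, the log2 signal was taken and the 75th percentile of all non-control probes on that array was subtracted, which gives the log2 level used here. Differences are DLEU1 array minus control array. The number of arrays limits the precision, and the errors printed are technical. The scanner software's own error, which is set at 10% for bright spots, becomes about 0.20 on the log2 scale for a difference between arrays. Probes spotted several times gave a smaller spread, with an SD of 0.080 for the difference of a spot over 282 detected probes. Different probes of the same gene gave a pooled SD of 0.47 over 4674 genes, and neither figure holds the variation between cultures.

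The control array had 27731 probes well above background (47.6%) and the DLEU1 array 27969 (48.1%), with 26279 on both. The differences of those on both had a median of -0.07 and an SD of 0.88. All 10 squamous epithelial markers listed were detected on both arrays, and 7 of them were at least 2-fold higher on the DLEU1 array, where 9.18% of all gene names were, with a median difference of 1.74 and a range from -0.78 for EPCAM, an epithelial adhesion molecule, to 3.09 for the keratin KRT17. Of 12 markers of leukocytes, endothelium, fibroblasts and muscle, 8 were detected on both arrays, 1 on the control array only and 3 on neither, the 3 being CD3E, PECAM1 and COL3A1. COL1A1 and VWF were higher by 3.99 and 3.70, VWF at 1 of the 2 probes detected on both arrays. CD14 and DES differed by -1.60 and -1.01, and with normexp, an alternative background correction, by -0.56 and -0.84. The part of these marker differences in the OAS values was not tested.

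OAS3 encodes the largest synthetase of the family, built of several OAS units of which the last is catalytic. Its probe A_24_P335305 (hg19 chromosome 12, 113410131 to 113410190, base 5714 of NM_006187), read 1540 ± 154 on the control array and 483 ± 48.4 on the DLEU1 array, where ± is the scanner error. The log2 level went from 2.67 to 1.03, a difference of -1.63 with a scanner error of 0.20, or 3.10-fold lower. Only 3.04% of the probes detected on both arrays had a difference as low. The difference was larger than the SD of 0.074 for spots of this brightness and the SD of 0.47 between probes of the same gene.

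The other OAS3 probe, A_33_P3402489 (base 3124), read 89.3 ± 9.45 on the control array and 30.5 ± 4.35 on the DLEU1 array. Its log2 level went from -1.44 to -2.95, a difference of -1.51 with a scanner error of 0.26, or 2.85-fold lower, and 3.71% of probes were as low. The spread of spots at this low brightness was wider, with an SD of 0.35. The probes of OAS3 therefore gave the same direction from positions more than a kilobase apart, and their differences were 0.12 apart with a scanner error of 0.33. Of the lit probes (those detected on the control array) nearest to the OAS3 spots on the slide, 100 around each, 12% and 7% were at least 2-fold lower, against 12.5% of all lit probes. The probe at base 3124 depended on the background correction. With the normal-exponential correction normexp its difference was -0.68, which is less than 2-fold, while that of the probe at base 5714 was -1.55.

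**Figure D1:**
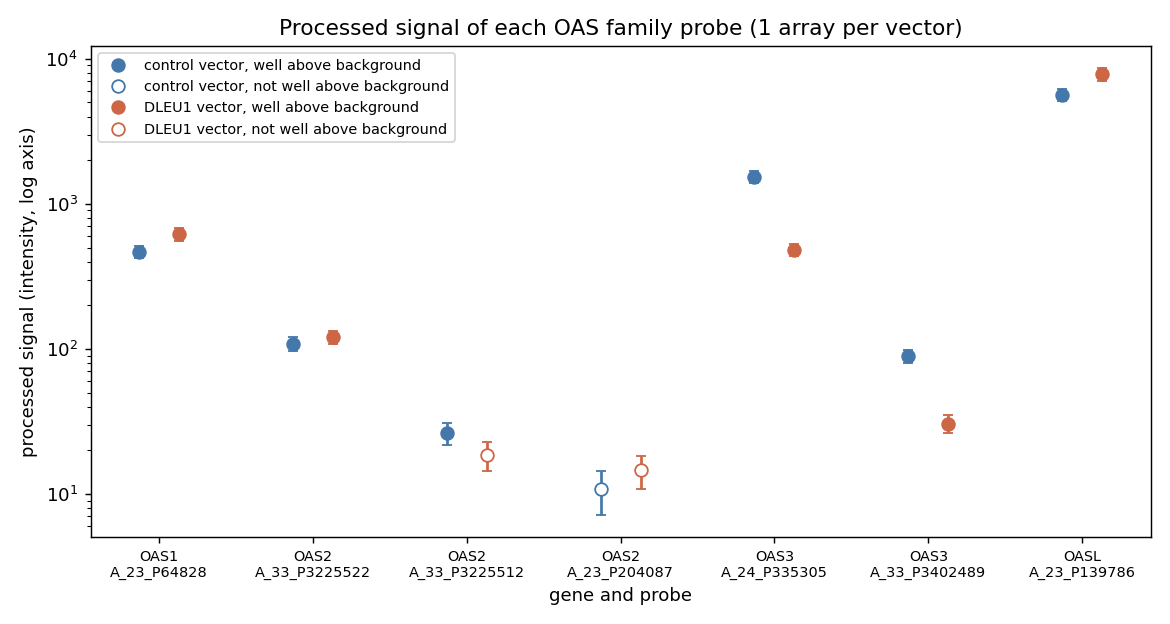
Processed signal of the 7 OAS family probes, on a log axis in arbitrary units, for the control vector array (blue) and the DLEU1 vector array (orange). Bars are the scanner error and open circles are readings not well above background. The bars of the 2 arrays do not overlap at OAS1, OASL and both OAS3 probes and overlap at the 3 OAS2 probes, and the widest gap is at OAS3, 1540 against 483 and 89.3 against 30.5.

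OAS1 encodes the smallest synthetase, whose splice forms end in different tails. Its single probe, A_23_P64828, matches NM_002534, NM_001032409 and NM_016816, so it cannot separate these forms. It read 468 ± 46.9 on the control array and 617 ± 61.8 on the DLEU1 array. The log2 level went from 0.95 to 1.39, a difference of 0.44 with a scanner error of 0.20, or 1.35-fold higher. This was more than the SD of 0.070 for spots of this brightness and less than the SD of 0.47 between probes of the same gene. The spot lay where probes tended to be lower on the DLEU1 array: 22% of its 100 nearest lit neighbours were at least 2-fold lower, and their median difference was -0.18. With the neighbours' median subtracted the OAS1 difference was 0.62.

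OAS2 encodes the middle-sized synthetase, and most of its probes read close to background. The array carried 3 probes for its splice forms, whose positions are given on chromosome 12 in hg19. Probe A_33_P3225522 (113426550 to 113426609, transcript variant 3, NM_001032731) read 109 ± 11.5 and 120 ± 12.6. The log2 level went from -1.15 to -0.97, a difference of 0.18 with a scanner error of 0.22, so this reading did not separate the arrays. Probe A_33_P3225512 (113448429 to 113448488, NM_002535, variant 2, and also NM_016817) read 26.3 ± 4.54 on the control array and 18.6 ± 4.18 on the DLEU1 array, where it was not well above background. The control reading was 1.37-fold higher, a difference of -0.46 with a scanner error of 0.41. Spots of this brightness had an SD of 0.72, so this reading did not separate the arrays either. Probe A_23_P204087 (113448601 to 113448660, NM_016817, variant 1) read 10.8 ± 3.58 and 14.5 ± 3.66 and was not well above background on either array. Only the variant 3 probe was thus detected on both arrays, and neither of the probes for the other forms gave a difference beyond the spread of spots.

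OASL, the member without enzyme activity, differed in the same direction as OAS1. Its probe A_23_P139786 (hg19 chromosome 12, 121458320 to 121458379, minus strand, matching NM_003733, NM_198213 and NM_001261825) read 5642 ± 564 on the control array and 7824 ± 782 on the DLEU1 array. The log2 level went from 4.54 to 5.05, a difference of 0.51 with a scanner error of 0.20, or 1.42-fold higher. A difference at least as high was held by 20.7% of the probes detected on both arrays, so this value lay well inside the spread of the array.

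**Figure D2:**
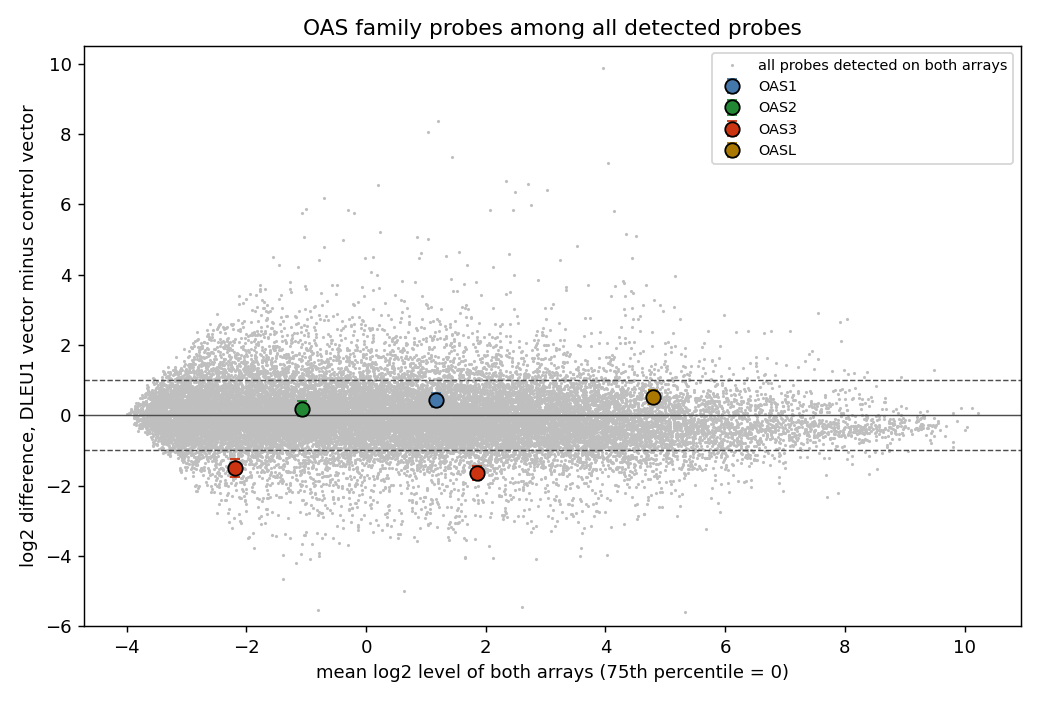
Log2 difference (DLEU1 vector minus control vector) against the mean log2 level of both arrays, for the 26279 probes detected on both (grey) and the 5 OAS family probes among them (coloured, with scanner error bars). Dashed lines mark 2-fold. The 2 OAS3 probes lie below the lower line at -1.63 and -1.51, and the other 3 lie between 0.18 and 0.51.

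By count, 5 of the 7 probes were detected on both arrays, 1 on the control array only and 1 on neither. Of the 5, 0 were at least 2-fold higher with the DLEU1 vector, where 8.98% of all such probes were, and 2 were at least 2-fold lower, where 9.78% were, both of them OAS3. The median difference of the 5 was 0.18, beside -0.07 over all detected probes. With 1 value per gene, the brightest probe detected on both arrays, the median of the 4 genes was 0.31, again beside -0.07, and 1 of the 4 was at least 2-fold lower where 9.78% of gene names were, and 0 at least 2-fold higher where 9.18% were. By gene, 3 were above 0 and OAS3 was below. The OAS2 value of 0.18 came from its variant 3 probe alone, however, and was within its scanner error of 0.22. With spike-in scaling OAS1 and OAS2 were below 0 as well.

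To compare the members without the choice of scale, the differences of the probes were subtracted from each other, since a single scaling factor per array cancels. Among the 10 pairs of the 5 probes, the difference of OAS1 exceeded those of the OAS3 probes at bases 5714 and 3124 by 2.07 and 1.95 on the log2 scale, with scanner errors of 0.29 and 0.33. OASL exceeded them by 2.14 and 2.02, and the OAS2 variant 3 probe by 1.81 and 1.69. These 6 gaps were each more than 5 scanner errors. They share the OAS3 probes and the arrays, and the scanner error does not hold the variation between probes of a gene or between cultures. By contrast the difference of OASL was 0.07 above that of OAS1 and 0.33 above that of OAS2, each with an error of about 0.29, and OAS1 was 0.26 above OAS2. The gap between OAS1 and the OAS3 probe at base 5714 stayed between 1.87 and 2.09 under every other processing tried, whereas the gap to the OAS3 probe at base 3124 ranged from 0.99 with normexp to 2.08. With normexp the gaps of OAS2 and OASL to that probe were 0.74 and 1.13.

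**Figure D3:**
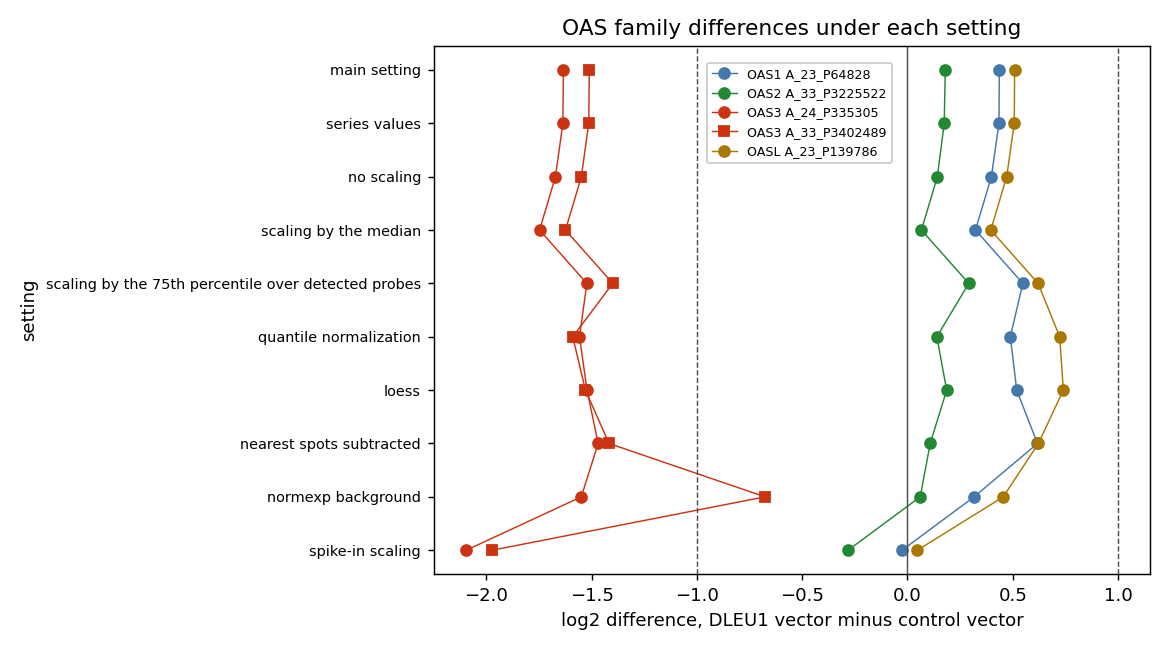
Log2 difference (DLEU1 vector minus control vector) of the 5 OAS family probes detected on both arrays, under the main setting and under other scalings and background corrections, 1 row each. Dashed lines mark 2-fold. OAS3 stays below 0 in every row, from -2.10 to -0.68, while OAS1 and OAS2 cross 0 with spike-in scaling, at -0.03 and -0.28.

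The direction given for OAS1 and OAS2 depended on the scale. The spike-in RNAs added to each sample were brighter on the DLEU1 array by a median of 0.42 before scaling, over 8 probes, and setting them equal moved the median of all detected probes from -0.07 to -0.53. On that scale OAS1 was at -0.03, OAS2 at -0.28 and OASL at 0.05, while the OAS3 probes were at -2.10 and -1.97. Under each of the other settings run, OAS1, OAS2 variant 3 and OASL were above 0 and the OAS3 probes below, the one at base 3124 having no value where a signal of 100 was required.

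The enzymes and partners that handle oligoadenylates were next. ABCE1, an ATPase that recycles ribosomes and is also known as an inhibitor of the oligoadenylate-dependent ribonuclease, was lower by 1.75, from 2172 to 627, and both of its probes were at least 2-fold lower. Its spot also lay among lower neighbours, of which 33% were at least 2-fold lower, against 12.5% overall. With the neighbours' median subtracted the ABCE1 difference was -1.45. PDE12, a phosphodiesterase that degrades oligoadenylates, was lower by 1.03, and AKAP7, whose phosphodiesterase-like domain is related to enzymes that do so, differed by -0.64. Thus 2 of these 3 genes were at least 2-fold lower, where 9.78% of all gene names were, and 0 were higher. Their median was -1.03. The count depended on the scaling, background correction, subtraction of neighbours and threshold, from 1 to 3 over the settings tried. PDE12 lay close to the 2-fold threshold and ranged from -1.49 to -0.92.

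Among 10 other sensors of foreign RNA and DNA and their adaptors, 9 were detected on both arrays, with a median of 0.22. CGAS, the cytosolic DNA sensor listed on the array as MB21D1, was the only one beyond 2-fold, lower by 1.31, from 2952 to 1162. The count of 1 of 9 lower stands beside 9.78% of all gene names, and that of 0 higher beside 9.18%. The highest was STING1 (TMEM173), the adaptor that CGAS signals through, at 0.53. EIF2AK2, the double-stranded RNA-activated kinase that blocks translation, read 10008 and 6840 and differed by -0.51, and MAVS, the adaptor of the RIG-I-like receptors, by -0.71. RIG-I (DDX58), IFIH1, DHX58, ADAR and TLR3 differed by 0.15, 0.23, 0.38, 0.22 and 0.37. ZBP1 was not well above background on either array.

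The receptors, kinases and transcription factors that drive OAS genes were all detected on both arrays, 13 of 13, with a median of 0.11. STAT2 was higher by 1.94, from 4241 to 15847, or 3.84-fold, and IRF1 by 1.03, from 375 to 743, and no gene of the list was at least 2-fold lower. The 2 of 13 higher stand beside 9.18% of all gene names and the 0 lower beside 9.78%. IRF1 was under 2-fold with scaling by the median, no scaling, spike-in scaling and normexp, and ranged from 0.56 to 1.14 over all settings. IRF9, which binds DNA together with STAT2, differed by 0.79, from 714 to 1203. IRF7, the amplifier of the interferon response, differed by 0.76, and the lowest was the receptor chain IFNAR2 at -0.44. Of 21 interferon genes, 17 had a probe. The probes of 14 were not well above background on either array, IFNB1 and IFNG among them. IFNA4 and IFNL2 were dim at 0.53 and -1.10, and IFNL2 was at -0.17 with normexp. IFNE was detected on the DLEU1 array only, 2.54-fold above the lowest detected level of the control array. Spots at its brightness had an SD of 0.72.

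The family was then set beside 37 other effector ISGs. Of these, 34 were detected on both arrays, 19 with a difference above 0 and 15 below, with a median of 0.12. Those at least 2-fold higher were RTP4 (2.45), a receptor transporter, IFITM1 (1.53), a membrane protein that blocks viral entry, SAMD9 (1.49), a restriction factor of poxviruses, and BST2 (1.48), which tethers budding virus. RSAD2, which encodes the antiviral enzyme viperin, was detected on the DLEU1 array only. It was at least 19.95-fold higher at 1 of its 2 probes, the one brighter on that array. IFI44 was the only one at least 2-fold lower, at -1.51, from 18184 to 6211, so OAS3 and IFI44 were the 2 genes beyond 2-fold in that direction among the 38 genes of both lists detected on both arrays, where 9.78% of gene names were. In shares, 4 of 34 were at least 2-fold higher, where 9.18% of gene names were, and 1 of 34 lower, where 9.78% were.

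**Figure D4:**
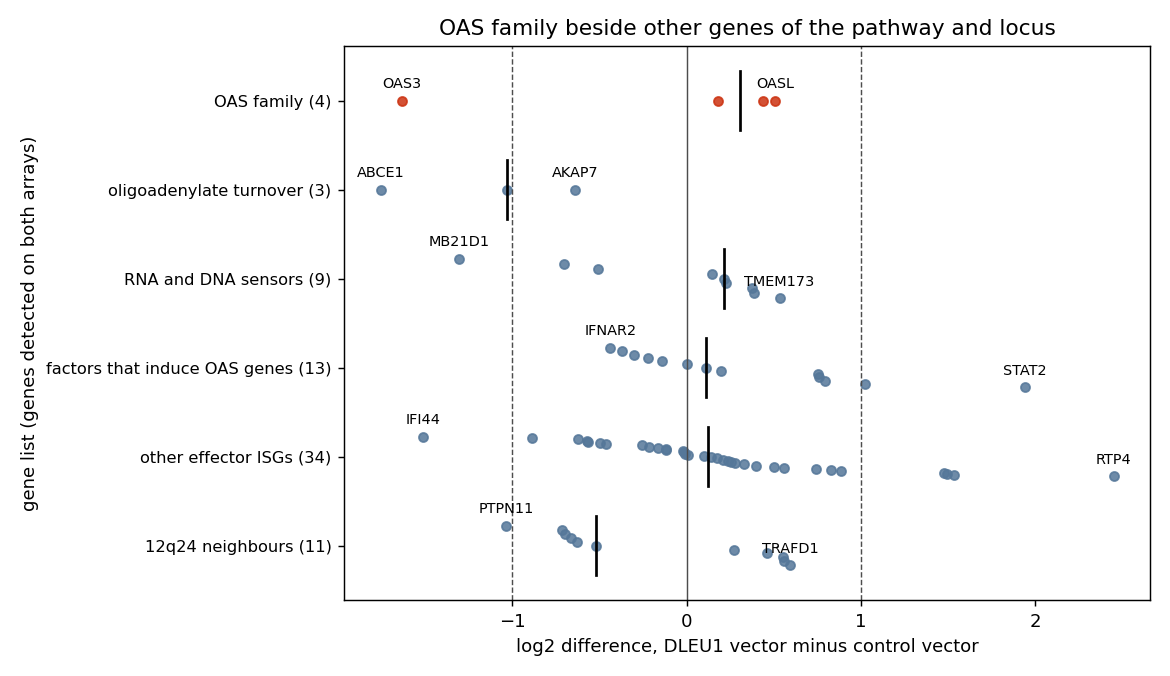
Log2 difference (DLEU1 vector minus control vector) of each gene detected on both arrays in the OAS family and 5 other lists (interferon genes and cell type markers are not drawn), with the number of genes in brackets, the list median as a black bar, and the lowest and highest gene named. Dashed lines mark 2-fold. Among the genes drawn, OAS3 and ABCE1 are the lowest, at -1.63 and -1.75, and RTP4 is the highest at 2.45.

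The genes around the family on 12q24 were read to see whether the OAS3 difference was shared along the chromosome. Of 15 neighbours of the OAS1 to OAS2 cluster and of OASL, 11 were detected on both arrays. Of these, 6 differed by -1.04 to -0.52 and 5 by 0.27 to 0.59, with the median, -0.52, at the edge of the lower group. PTPN11, a phosphatase gene near the cluster, was lower by 1.04 at its brightest probe, and 1 of its 2 probes was beyond 2-fold. This 1 of 11, beside 9.78% of all gene names, was 0 with the percentile taken among detected probes, after loess and after quantile normalization, and 5 with spike-in scaling. The highest of these 11 was TRAFD1, which encodes a zinc finger protein, at 0.59. P2RX7, which encodes an ATP-gated channel, was detected on the control array only, at least 1.10-fold higher at the probe brightest there of its 3. OAS3 lies between OAS1 and OAS2. The probes of these detected on both arrays differed by 0.44 and 0.18 (-0.03 and -0.28 with spike-in scaling). The OAS2 probe A_33_P3225512, detected on the control array only, read 1.37-fold lower on the DLEU1 array, within the spread of spots of its brightness.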

How the data were processed

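Total RNA of Ca9-22 cells (100 ng) was labelled with Cy3 and hybridised to SurePrint G3 Human GE v3 arrays. The authors deposited Agilent Feature Extraction files, per the file headers version 10.7.3.1 with an hg19 design, whose processed signal is an intensity, background-subtracted and detrended within each array. The deposited table of the series held the same intensity within 0.497%. The p-value of each spot against its background, deposited in the same files, was carried along but set no filter. The authors used GeneSpring GX 13.

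Control spots and outlier flags (84 and 103 spots) were left out, spots of a probe averaged, and log2 signals centred on the 75th percentile. Detected means flagged well above background by the scanner software. With 1 array per group no test was run. A bound sets the bright reading against the higher of the dim reading and the lowest detected signal. Beyond 2-fold marks a log2 difference of at least 1. Genes that are no members took their brightest probe detected on both arrays, and lists were named by their 2-fold, single-array, highest and lowest genes. Scaling, background, filter, threshold and spatial alternatives were run with Python 3.11.15, R 4.3.3 and limma 3.58.1, and the counting was tested on simulated data. The members and lists were chosen with earlier results of these data known. Of the listed genes, 3 are not reported here. Names and sequences came from RefSeq tables of GRCh38.p14, no coordinates were converted, and the other settings are described with the results.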

Additional observations from a re-analysis of the deposited data

How the results depend on the processing

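No replicate could be left out, and no paired analysis was possible because each group had 1 array. The count of 0 OAS probes at least 2-fold higher held under all 13 alternatives. The count of 2 lower was 1 with normexp, 1 where probes under a signal of 100 were dropped and 1 with a 3-fold threshold, and was 2 under the other 10. The median of the OAS probes, 0.18, was 0.067 with scaling by the median, 0.29 when the percentile was taken among detected probes alone, -0.28 with spike-in scaling, 0.061 with normexp, 0.31 where probes under a signal of 100 were dropped and 0.31 with 1 value per gene (an alternative chosen after seeing the data), and moved by less than the spread of a spot under the others. By probe the differences ran from -0.03 to 0.62 for OAS1, -0.28 to 0.29 for the OAS2 variant 3 probe, -2.10 to -1.47 and -1.97 to -0.68 for the OAS3 probes, and 0.05 to 0.74 for OASL. Without the filter on dim probes the other OAS2 probes read -0.46 and 0.47. Over all probes, 2360 were at least 2-fold higher and 2571 lower, and with a 3-fold threshold 958 and 855. The number was highest at 5537 higher without the filter and 6349 lower with spike-in scaling. Of 975 values of 90 listed genes under the alternatives, 43 in 29 genes changed sign, none of them a gene beyond 2-fold. The dim OAS2 and OAS3 probes are limited by signal over background.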
